A study of Mus musculus with 4 samples.

Results

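The cells described here were 111 of 6509 single cells from 4 mouse medulloblastomas of the Sonic hedgehog (SHH) subgroup, picked out by transcripts that mark astrocytes. A cell was taken when at least 4 of the 6 genes Aqp4, Clu, Igfbp2, Timp4, Slc1a3 and Gpr37l1 had at least 1 UMI (1 counted mRNA molecule). In addition, the mean value of Aqp4, Clu, Igfbp2 and Timp4 had to lie above that of the oligodendrocyte lineage genes Cspg5, Olig1, Matn4 and Pllp, and Ptprc, the pan-leukocyte gene, had to be undetected. Tumours 1, 2, 3 and 4 gave 25, 20, 46 and 20 such cells. They are called astrocyte-marker cells here and not astrocytes, because most of them also carried the transcripts of the granule neuron lineage from which these tumours grow.

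All 4 tumours were untreated end-point medulloblastomas of Ptch1+/- mice that had been irradiated at birth, and no other genotype or treatment was sampled. Every cell compared here therefore came from an animal with 1 Ptch1 allele disrupted, irradiated, and with an established tumour, and there was no cerebellum without a tumour among the samples. Viably frozen suspensions were thawed in the presence of DNase, live cells were sorted with propidium iodide or DAPI, and the sorted cells were run on the 10x Genomics platform. The labels give the tumours as replicates 1 to 4 without saying that the mice differed, so the spread between tumours is the only replicate error available.

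Astrocytes are the glial cells that clear glutamate and GABA from synapses, buffer potassium and water, supply lipids and metabolites to neurons and lay down much of the brain's matrix. The cerebellum also holds Bergmann glia, radial astrocytes on which migrating granule neurons travel. Aqp4 encodes the water channel of astrocyte end-feet, Slc1a3 the glutamate transporter GLAST and Gpr37l1 a G protein-coupled receptor of astrocytes. Clu encodes the secreted chaperone clusterin, Igfbp2 a secreted binding protein of insulin-like growth factors and Timp4 an inhibitor of metalloproteinases.

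Astrocyte-marker cells were set against 3 other classes of cells from the same libraries. Granule-marker cells (421, 2144, 960 and 257 in tumours 1 to 4) had no Ptprc, at least 3 of the 5 granule lineage genes Zic1, Zic2, Barhl1, Neurod1 and Pax6, and fewer than 3 of the 6 astrocyte genes. Oligodendrocyte-marker cells (43, 22, 65 and 59) had no Ptprc, at least 3 of Cspg5, Olig1, Matn4, Pllp, Pdgfra and Sox10, and an oligodendrocyte mean above the astrocyte mean. Ptprc-detected cells (132, 106, 12 and 1172) had at least 1 UMI of that leukocyte gene. They are no clean background for other transcripts, since they also held granule lineage RNA in every tumour, as given below. The source of that RNA in them was not tested.

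The genes of the rule had the following levels, which are a description because they chose the cells. Levels are CPM, a gene's UMIs summed over the cells of a class in 1 tumour and scaled by all UMIs of those cells. Aqp4 had 42.5, 219, 183 and 126 CPM in astrocyte-marker cells of tumours 1 to 4, against 0.975, 2.04, 3.02 and 1.38 CPM in granule-marker cells. Slc1a3 had 340, 645, 555 and 834 CPM in astrocyte-marker cells, against 56.1, 68.5, 84.3 and 80.9 CPM in granule-marker cells. Igfbp2 had 160, 426, 260 and 427 CPM in astrocyte-marker cells, against 75.0, 10.1, 8.05 and 15.5 CPM in granule-marker cells. Tumour 1 gave the lowest level of all 3 in astrocyte-marker cells, and it also had the highest Igfbp2 among granule-marker cells. Clu, Timp4 and Gpr37l1 reached between 54.7 and 357 CPM in astrocyte-marker cells, against between 1.20 and 18 CPM in granule-marker cells.

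The rule counts genes, so its edge can be looked at directly. Cells that met the other conditions with only 3 of the 6 genes numbered 54, 30, 34 and 4, and those just inside, with 4 genes, numbered 15, 8, 24 and 7. The mean log2 value of Aqp4, Clu, Igfbp2 and Timp4 was 0.775, 0.733, 0.777 and 1.04 in the cells with 4 genes, against 0.673, 0.393, 0.561 and 0.333 in the cells with 3. Slc1a3 had 135, 213, 170 and 685 CPM with 4 genes, against 64.4, 125, 152 and 83.1 CPM with 3 genes. A further 17, 7, 16 and 22 cells had 4 or more of the genes but an equal or higher oligodendrocyte mean, and 3, 1, 0 and 11 were left out for Ptprc alone.

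Astrocyte-marker cells made up 3.13%, 0.772%, 3.74% and 1.06% of the cells of tumours 1 to 4, with exact 95% binomial intervals of 2.04% to 4.59%, 0.472% to 1.19%, 2.75% to 4.96% and 0.647% to 1.63%, which cover counting error only. The mean share was 2.18% ± 1.48 (SD, n = 4), and 1.71% of all cells were members. Tumours 1 and 3 had the higher shares, with intervals that did not overlap those of tumours 2 and 4, but the tumours differed in depth and the order changed at equal depth, as given next. Of the 111 cells, 54 had 4 of the genes, 29 had 5 and 28 had all 6, and the cells with all 6 were 0.627%, 0.270%, 0.814% and 0.317% of each tumour.

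Depth moved with membership. Astrocyte-marker cells had a median of 35095, 10856, 11163 and 13034 UMIs in tumours 1 to 4, against 15105, 8072, 6860 and 9577 in granule-marker cells. The rule was reapplied after every cell had been thinned to 4900 UMIs and shallower cells had been left out. It then found 40 of 5250 cells, or 0.762%, where it had found 99 of the same cells, or 1.89%, at full depth, and 36 cells were found both times. By tumour, 7 of 25, 3 of 16, 15 of 40 and 11 of 18 of these members were found again. The shares after thinning were 1.00%, 0.136%, 1.64% and 1.05% in tumours 1 to 4, so that tumour 1 no longer stood above tumour 4. The cells with all 6 genes were shallower than those with 4 genes in tumours 1, 2 and 3 and deeper in tumour 4, with medians of 22477, 4452, 6402 and 19604 UMIs, against 37297, 10614, 11163 and 8994 for the cells with 4 genes.

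**Figure D1:**
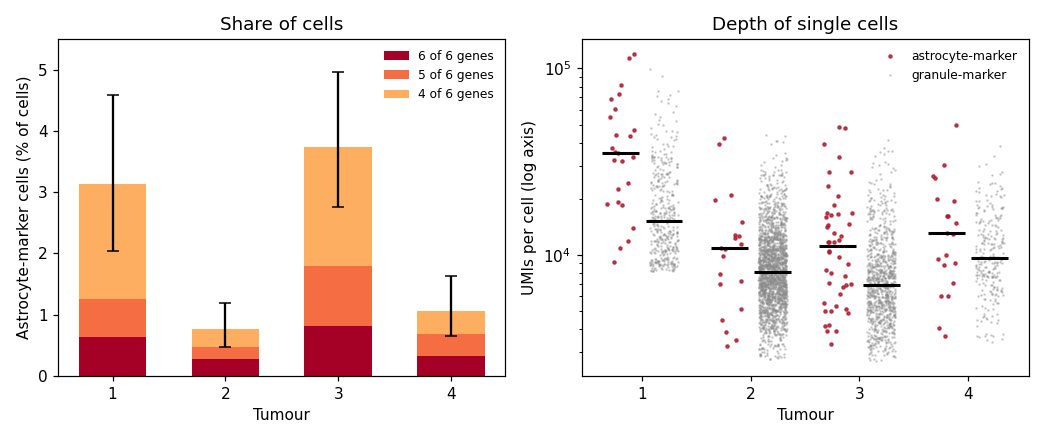
Left, the percentage of cells in each tumour that were astrocyte-marker cells, stacked by how many of the 6 genes were detected, with exact 95% binomial intervals for the whole bar. Right, UMIs per cell (log axis) of astrocyte-marker and granule-marker cells, 1 point per cell with a line at the median, which is 35095 against 15105 in tumour 1 and between 10856 and 13034 against between 6860 and 9577 in the others.

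The label was checked with astrocyte genes the rule had not used. These were Gfap, Aldh1l1, Slc1a2, S100b, Sox9, Gja1, Aldoc, Mlc1, Fgfr3, Acsbg1, Mt3, Ttyh1, Cldn10, Ednrb, Hepacam, Slc4a4 and others of the same list. Apoe was left out because Ptprc-detected cells carried more of it than any other class. The summed level of these markers was 845, 1464, 1385 and 2295 CPM in astrocyte-marker cells of tumours 1 to 4. It was 339, 308, 444 and 484 CPM in granule-marker cells, 442, 1675, 930 and 1044 CPM in oligodendrocyte-marker cells, and 344, 130, 215 and 227 CPM in Ptprc-detected cells. Astrocyte-marker cells thus stood above granule-marker cells in each tumour, but below oligodendrocyte-marker cells in tumour 2. The rules set astrocyte-marker and granule-marker cells apart by astrocyte genes. Markers that accompany those genes differ by that choice, so this direction is no independent sign of what the cells are.

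The granule lineage genes gave the other side of the check. The list holds Atoh1, the factor that founds the granule lineage, the Zic genes outside the rules, Neurod2, Dcx, Tubb3, Cntn2 and others. They summed to 5428, 6565, 7273 and 3856 CPM in astrocyte-marker cells, against 5193, 8762, 8843 and 6981 CPM in granule-marker cells and 3453, 1845, 4373 and 1593 CPM in Ptprc-detected cells. Of the 111 astrocyte-marker cells, 94, or 84.7%, also met the count of granule lineage genes set for granule-marker cells. The 17 that did not (3, 3, 7 and 4 by tumour) were too few for a comparison of their own; they had 3200, 4116, 4677 and 2346 CPM of astrocyte markers and still 2550, 3683, 4553 and 2773 CPM of granule lineage genes. No doublets were called or removed, and whether 2 cells in 1 droplet or free RNA had a part in the mixed profiles was not tested.

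Among members grouped by the number of rule genes, cells with all 6 came closest to the label. Their astrocyte markers outside the rule summed to 1739, 3825, 4831 and 2738 CPM, against 568, 504, 882 and 1356 CPM in the cells with 4 genes. Their granule lineage genes summed to 3996, 6261, 5630 and 3753 CPM, against 5837, 5896, 7287 and 5396 CPM in the cells with 4 genes. The 17 members outside the granule count, set apart by granule genes, had lower granule lineage sums than these in every tumour. The cells with 4 genes stood only a little above the granule-marker cells of tumours 1 and 2 in astrocyte markers. Cells with all 6 genes thus had more astrocyte marker RNA than cells with 4 in each tumour, and a lower granule lineage sum in tumours 1, 3 and 4. A sum over few cells follows the deepest of them, and the median over cells gave another order. The median granule lineage level was 3782, 2913, 4325 and 3862 CPM in cells with all 6 genes, against 6349, 5176, 6936 and 3172 CPM in cells with 4 genes, lower in tumours 1, 2 and 3 and higher in tumour 4. The median astrocyte marker level of cells with 5 genes did not lie above that of cells with 4 genes in tumour 3, with 713 CPM against 755 CPM.

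**Figure D2:**
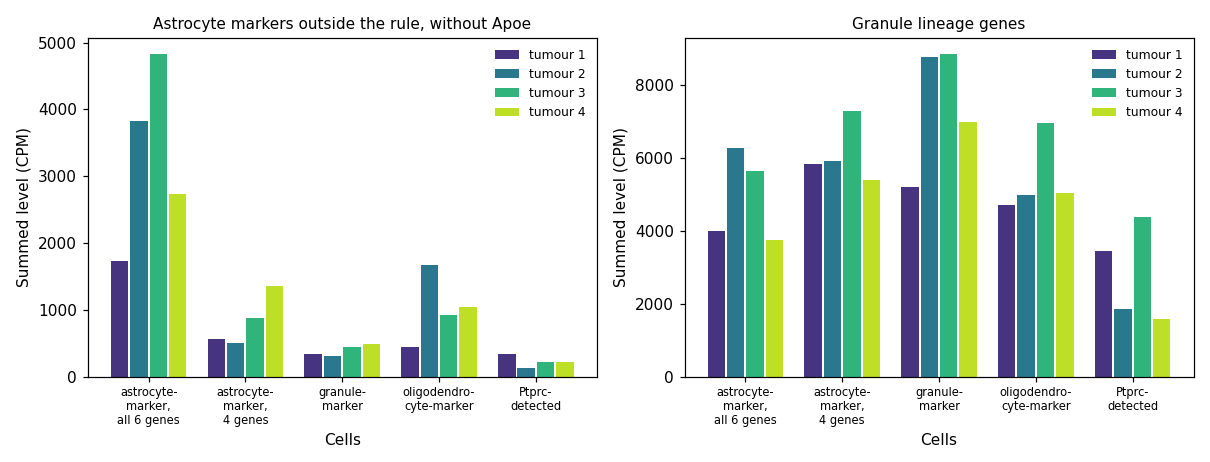
Summed CPM of astrocyte markers outside the rule without Apoe (left) and of granule lineage genes (right) by class of cells, 1 bar per tumour with no error bar because each bar is 1 sum. Astrocyte-marker cells with all 6 genes reach between 1739 and 4831 CPM on the left, against between 308 and 484 CPM in granule-marker cells.

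Single cells were also set against the granule-marker cells of their tumour. In 56 of the 111 cells, or 50.5%, the astrocyte markers outside the rule lay above the 95th percentile of the granule-marker cells of the same tumour, and 19 cells, or 17.1%, lay below the 5th percentile of the granule lineage genes outside the rules. All 19 of these were among the 56. The share above the 95th percentile was 29.6% (16 of 54) for cells with 4 genes, 51.7% (15 of 29) with 5 and 89.3% (25 of 28) with 6, although in tumour 3 it was 3 of 12 with 5 genes and 8 of 24 with 4. By tumour it was 10 of 25, 11 of 20, 20 of 46 and 15 of 20 cells. The oligodendrocyte-marker cells lay above it in 73 of 189. Across the astrocyte-marker cells of a tumour, Spearman's rho between the 2 sums was -0.522, -0.459, -0.338 and -0.562 (25, 20, 46 and 20 cells), a description of cells that share a library and differ in depth.

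**Figure D3:**
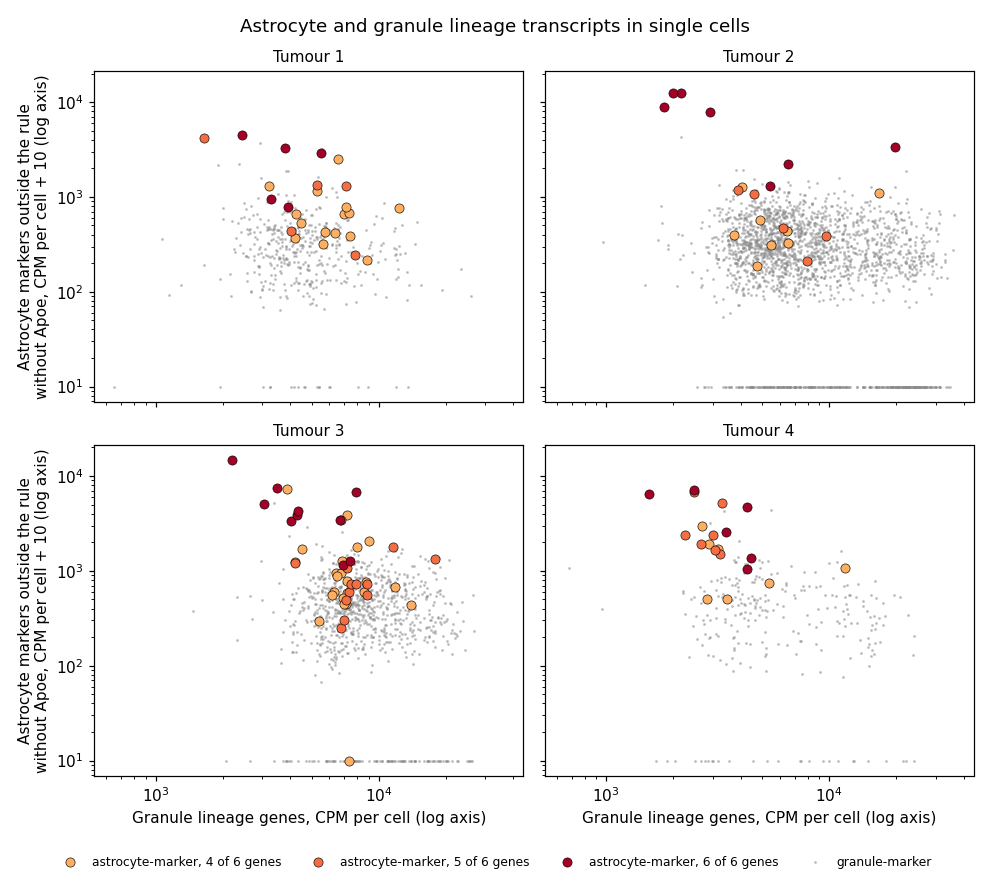
Each point is 1 cell, with the summed CPM of granule lineage genes across and of astrocyte markers outside the rule without Apoe upwards (both log axes, 10 CPM added upwards), 1 panel per tumour. Astrocyte-marker cells with all 6 genes (dark red) lie mostly above the cloud of granule-marker cells (grey), and those with 4 genes (light orange) mostly within it, with 29.6% of them above the 95th percentile of astrocyte markers in granule-marker cells.

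Markers of other cell types were summed in the same way, for leukocytes with the limit that Ptprc itself chose the cells. Microglia and macrophage markers summed to 181, 53.8, 39.4 and 546 CPM in astrocyte-marker cells, against 247, 58.8, 41.3 and 589 CPM in granule-marker cells and 3728, 16646, 21495 and 12170 CPM in Ptprc-detected cells. Astrocyte-marker cells thus held no more of these transcripts than granule-marker cells in any tumour, and both were highest in tumours 1 and 4, which also had the most Ptprc-detected cells. T cell, NK cell and neutrophil markers summed to 110, 0, 3.15 and 443 CPM in astrocyte-marker cells, against 116, 33.6, 3.90 and 559 CPM in granule-marker cells. Muscle markers summed to 212, 42.3, 83.6 and 19.4 CPM, against 428, 66.4, 78.1 and 20.7 CPM, and were highest in tumour 1 in both classes. Oligodendrocyte precursor markers outside the rules summed to 329, 277, 361 and 346 CPM in astrocyte-marker cells, against 264, 224, 353 and 224 CPM in granule-marker cells and 384, 1500, 1190 and 787 CPM in oligodendrocyte-marker cells. Astrocyte-marker cells thus lay above granule-marker cells in this sum in every tumour, and the part of such transcripts in the differences below was not tested. Sox10, the defining factor of the oligodendrocyte lineage and one of the genes that chose the oligodendrocyte-marker cells, had 0, 3.84, 1.58 and 0 CPM in astrocyte-marker cells, against 7.91, 193, 116 and 63.2 CPM in oligodendrocyte-marker cells. The oligodendrocyte-marker cells of tumour 1 were thus poor in Sox10 and, with a median of 53583 UMIs, the deepest class. Endothelial markers summed to 9.7 CPM or less in astrocyte-marker cells and pericyte and fibroblast markers to between 48.9 and 76.8 CPM. Choroid plexus and ependymal markers summed to between 15.8 and 35.6 CPM in astrocyte-marker cells, and to 2189 CPM in the granule-marker cells of tumour 4, where Ttr, the abundant choroid plexus transcript, had 2185 CPM.

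Against granule-marker cells of the same tumour, astrocyte-marker cells had more of genes for glutamate and GABA uptake, ion transport, metal binding and matrix, and most genes that passed the test were higher. Of 11298 genes tested, 297 passed, or 2.63%, with 264 higher (2.34%) and 33 lower (0.292%) in astrocyte-marker cells. A difference here is the mean deposited log2 value of astrocyte-marker cells minus that of granule-marker cells in the same tumour, and a gene passed at a Benjamini-Hochberg adjusted p under 0.05 over all genes tested. The genes of the rules were not tested. The others did not choose the cells, but transcripts that accompany the rule genes differ because of that choice, so the tests describe these cells and are no independent sign of what they are. A class mean also cannot tell more cells with a transcript from more of it in each cell.

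The counts leaned on single tumours. Without tumour 1, 599 genes passed (411 higher, 188 lower), without tumour 2 there were 182 (171 and 11) and without tumour 4 there were 176 (175 and 1). Of the 297 genes, 137 passed whichever tumour was left out. With all cells thinned to 5500 UMIs, 63 genes passed, 62 of them higher. Of the genes that passed, 8 of 15 astrocyte markers, 8 of 17 transport genes, 3 of 5 Bergmann glia markers, 4 of 11 matrix genes, 2 of 6 lipid genes and 0 of 4 Notch genes also passed after thinning. The small number of lower genes depended on the cells compared. There were 133 lower genes beside 273 higher ones against granule-marker cells of matched depth, 125 beside 280 in cells with at least 5 of the 6 genes, and 199 beside 298 in cells with all 6.

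**Figure D4:**
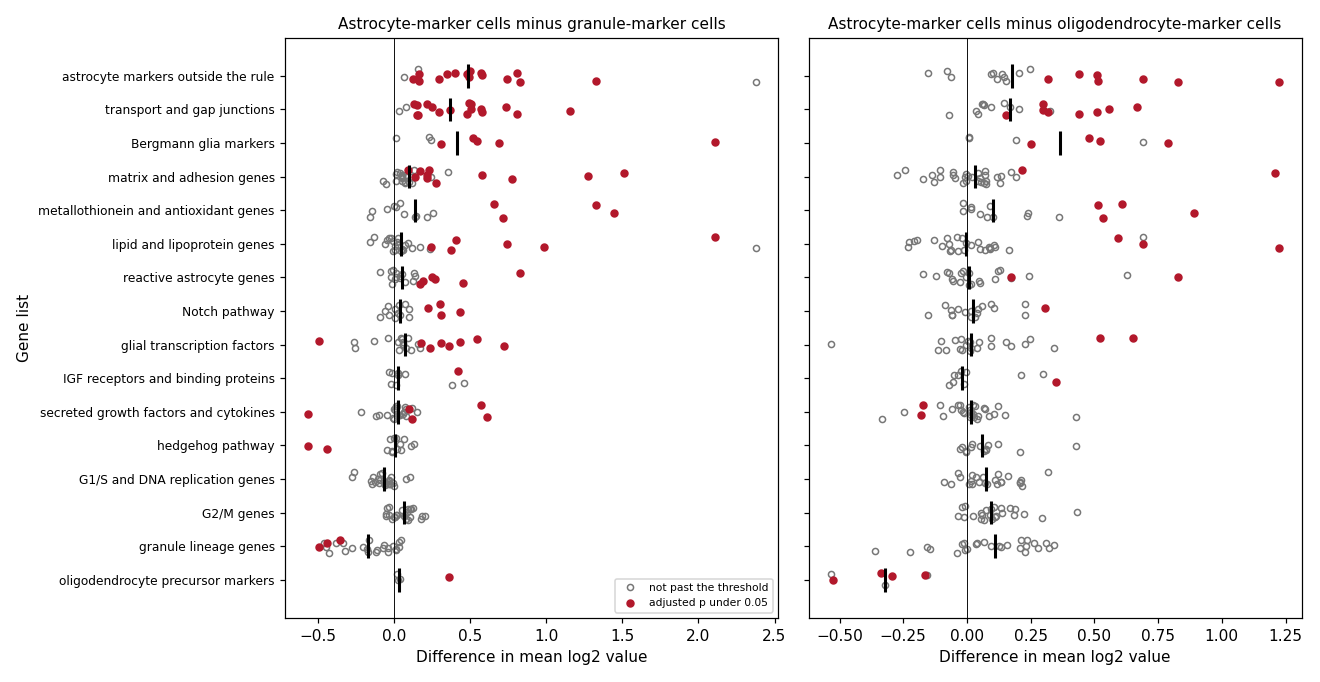
Difference in mean log2 value for every tested gene of 16 lists, astrocyte-marker minus granule-marker cells (left) and minus oligodendrocyte-marker cells (right), with filled red points past an adjusted p of 0.05, open points not past it, and a bar at each list's median. On the left the median of the astrocyte markers outside the rule is 0.48 and that of the granule lineage genes is -0.17, while that of all tested genes is 0.0038.

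Of the 18 tested astrocyte markers outside the rule, 15 rose and none fell, with a median difference of 0.48 against 0.0038 over all genes tested. Gfap, the intermediate filament of astrocytes, had 57.6, 142, 210 and 530 CPM in astrocyte-marker cells of tumours 1 to 4, against 42.1, 21.8, 69.3 and 36.3 CPM in granule-marker cells (difference 0.83, SE 0.09, adjusted p = 4.61e-05). It was higher in every tumour, though only a little so in tumour 1. S100b, a calcium-binding protein of astrocytes, had 106, 80.7, 118 and 259 CPM, against 51.9, 15.7, 42.3 and 110 CPM (0.81, SE 0.07, adjusted p = 4.38e-07). Mlc1, a membrane protein of astrocyte end-feet, had 30.2, 69.2, 66.2 and 120 CPM, against 1.95, 1.10, 2.52 and 2.76 CPM (0.58, adjusted p = 4.38e-07). Aldh1l1, a folate enzyme used as a pan-astrocyte marker, was low in both, with 8.49, 7.68, 9.46 and 29.1 CPM against 0.366, 0.449, 2.64 and 3.46 CPM (0.13, adjusted p = 0.0130), and it did not pass without tumour 4. Sox9, the glial transcription factor, had 122, 76.8, 110 and 171 CPM, against 103, 109, 100 and 103 CPM in granule-marker cells, and did not pass (0.16, adjusted p = 0.468). Apoe, the main lipoprotein of the brain, had 1098, 4076, 2715 and 7674 CPM, against 445, 146, 210 and 670 CPM, and missed the threshold (2.38, SE 0.38, adjusted p = 0.0722). Ptprc-detected cells had 5954, 21796, 23549 and 9262 CPM of it.

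Transporters moved together. Of 19 tested genes for transport and gap junctions 17 rose and none fell, with a median of 0.36, and 14 of the 17 passed whichever tumour was left out. Gja1 ended without tumour 2, Glul without tumour 2 or 4, and Slc6a9 without tumour 2, 3 or 4. Slc6a11, an astrocyte GABA transporter, had 42.5, 119, 117 and 207 CPM in astrocyte-marker cells, against 8.53, 4.34, 13.1 and 14.9 CPM in granule-marker cells (0.73, adjusted p = 2.33e-07). Slc1a2, the main astrocyte glutamate transporter beside Slc1a3, was closer, with 128, 146, 191 and 223 CPM against 70.1, 104, 111 and 117 CPM (0.49, adjusted p = 0.00157). Glul, glutamine synthetase, which converts glutamate taken up by astrocytes, had 148, 369, 312 and 385 CPM against 144, 171, 211 and 175 CPM (0.51, adjusted p = 0.00557), and hardly apart in tumour 1. Atp1b2, a sodium pump subunit of astrocytes, differed by 0.81 (SE 0.08). Slc4a4, the sodium bicarbonate cotransporter, and Kcnj10, an inward rectifier potassium channel, rose by 0.48 and 0.22 (adjusted p = 3.12e-06 and 0.00377). Slc2a1 and Slc7a11, for glucose and cystine, were the tested members that did not pass (0.08 and 0.03, adjusted p = 0.404 and 0.588).

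Bergmann glia markers rose in 5 of 8 tested members, with a median of 0.41, and all 5 passed whichever tumour was left out. Fabp7, brain lipid-binding protein of radial and Bergmann glia, gave the largest difference of the genes that passed with 1 direction in all tumours (2.11, SE 0.19, adjusted p = 0.000402). It had 785, 626, 587 and 2450 CPM in astrocyte-marker cells, against 60.2, 57.9, 137 and 155 CPM in granule-marker cells, and tumour 4 stood highest. After thinning its adjusted p was 0.0623. Sept4 had 132, 346, 244 and 194 CPM, against 74.8, 99.1, 142 and 89.8 CPM (0.69), and Itih3, an inter-alpha-trypsin inhibitor chain, had 28.3, 42.3, 101 and 80.8 CPM, against 5.49, 1.40, 7.55 and 3.80 CPM (0.52). Hopx, a homeodomain protein of radial glia, and Gria1, an AMPA receptor subunit of Bergmann glia, differed by 0.55 and 0.31. Gria4, Tnc and Gdf10 did not pass (0.23, 0.24 and 0.01, adjusted p = 0.123, 0.301 and 0.848), and Gdf10, a growth factor of Bergmann glia, had 0.944, 11.5, 11 and 0 CPM against 1.46, 4.89, 6.67 and 2.76 CPM. Dao and A2m were listed in 1 file only, with 0 UMIs in astrocyte-marker cells.

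Lipid genes moved less as a list, with 6 of 28 higher, none lower and a median of 0.05. Besides Fabp7 they were Acsbg1, an acyl-CoA synthetase (0.74), Dbi, the acyl-CoA binding protein (0.99), Lrp1, the receptor for Apoe (0.41), Scd2 (0.37) and Elovl5. Dbi had 610, 715, 478 and 1791 CPM in astrocyte-marker cells, against 524, 336, 268 and 525 CPM in granule-marker cells, and did not pass without tumour 2. Elovl5 did not pass without tumour 2, 3 or 4, nor Scd2 without tumour 4. Of 17 genes for sugar, glycogen and lactate, Aldoc, the brain aldolase (0.50, adjusted p = 0.00514), and Pygm, a glycogen phosphorylase, rose and none fell. Pygm did not pass without tumour 4.

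The metallothioneins, small proteins that bind zinc and copper, were among the firmest differences. Mt1 had 251, 734, 279 and 365 CPM in astrocyte-marker cells, against 31.8, 34.4, 68.4 and 53.6 CPM in granule-marker cells (1.45, SE 0.12, adjusted p = 8.19e-06). Mt3, the form of brain cells, had 180, 465, 254 and 336 CPM, against 26.9, 31.0, 70.4 and 73.9 CPM (1.32, SE 0.09, adjusted p = 4.70e-08). Mt2 had 93.4, 196, 75.7 and 97.0 CPM, against 8.90, 10.9, 20.8 and 12.4 CPM (0.71, adjusted p = 2.85e-06). Each of the 3 genes was highest in tumour 2 among astrocyte-marker cells. With Gstm1, a glutathione transferase (0.65), they made 4 of the 15 tested genes of their list. All 4 passed whichever tumour was left out and after thinning, though on log2 CPM of summed UMIs Mt1 had an adjusted p of 0.106.

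Mt1, Mt2 and Mt3 lie side by side on chromosome 8. Because they moved together, the 250 bases before the start of Mt1 and Mt2 are shown, read from RefSeq promoter sequences of GRCm38.p6 on the plus strand, at chr8:94178839-94179088 and chr8:94172368-94172617. Capitals mark the core of the metal response element, searched as TGCACNC or TGCGCNC on both strands.
Mt1: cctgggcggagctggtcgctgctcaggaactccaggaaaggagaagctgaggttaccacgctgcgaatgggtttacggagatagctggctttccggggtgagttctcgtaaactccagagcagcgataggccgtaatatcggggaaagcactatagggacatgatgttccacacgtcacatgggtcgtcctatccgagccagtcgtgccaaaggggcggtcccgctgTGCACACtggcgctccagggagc
Mt2: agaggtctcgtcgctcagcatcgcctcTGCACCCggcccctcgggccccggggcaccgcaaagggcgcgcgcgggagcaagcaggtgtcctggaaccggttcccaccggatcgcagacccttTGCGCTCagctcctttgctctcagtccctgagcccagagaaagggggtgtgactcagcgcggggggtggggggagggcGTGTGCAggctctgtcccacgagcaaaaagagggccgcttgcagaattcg
The window of Mt1 held 1 match and that of Mt2 held 3, while that of Mt3 held 0. Of 32851 promoter windows of the same length, 21.4% held at least 1 match and 5.17% at least 2, so a match in itself is common and describes letters only.

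Matrix genes rose in 11 of 32 tested members and fell in none, with a median of 0.09. Sparc (chr11:55394500-55423183 on the minus strand in the GENCODE annotation of GRCm38), a secreted protein that binds collagen, had 170, 388, 328 and 831 CPM in astrocyte-marker cells, against 67.9, 13.8, 59.6 and 34.6 CPM in granule-marker cells (1.51, SE 0.14, adjusted p = 9.55e-05). Its relative Sparcl1, which promotes synapse formation, had 138, 234, 221 and 808 CPM, against 44.7, 14.1, 26.7 and 38.4 CPM (1.27, SE 0.11, adjusted p = 3.12e-06). Both were lowest in tumour 1 and highest in tumour 4 among astrocyte-marker cells. Bcan, the proteoglycan brevican, and Ptprz1 differed by 0.77 and 0.58 (adjusted p = 2.95e-06 and 0.000268). Chl1, Sdc4, Spon1, Omg, Gpc5, Itgav and Dag1 made up the rest. Dag1 did not pass without tumour 2 or 4, Gpc5 without tumour 2 or 3, nor Itgav without tumour 2.

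Serpine2 is a secreted protease inhibitor, and Cst3 is the secreted protease inhibitor cystatin C. Both were among the 15 largest positive differences of genes that passed with 1 direction in every tumour. Serpine2 had 113, 257, 246 and 430 CPM in astrocyte-marker cells, against 8.78, 7.38, 21 and 16.6 CPM in granule-marker cells (1.27, SE 0.08, adjusted p = 5.96e-09). Cst3 had 1514, 1525, 981 and 1409 CPM, against 409, 273, 256 and 387 CPM (1.27, SE 0.09, adjusted p = 5.59e-08). Ptprc-detected cells carried more Cst3 still, with 2022, 4059, 3082 and 3521 CPM. None of the 10 tested microglia and macrophage markers passed in limma, or had an unadjusted p under 0.05, in either direction. Of all 11298 genes tested 297 passed and 1460 had such a p. Both classes had been chosen without Ptprc, so these markers cannot tell the source of the Cst3, which was not tested. Tspan7, Car2 and Pla2g7 were also among the 15, with differences of 1.25, 0.83 and 0.79.

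Genes of reactive astrocytes, which respond to injury, rose in 6 of 21 tested members, with a median of 0.05. Besides Gfap they were Vim, the filament protein vimentin (0.45, adjusted p = 0.0180), Stat3, a transcription factor of the reactive state (0.25, adjusted p = 0.0118), Cp, the copper oxidase ceruloplasmin (0.27), C4b, a complement component (0.19), and Ptx3, a secreted pentraxin (0.17). Vim had 402, 369, 120 and 785 CPM in astrocyte-marker cells, against 381, 209, 97.5 and 410 CPM in granule-marker cells, and neither Vim nor Stat3 passed without tumour 2 or without tumour 4. Lcn2, a marker of strong reactivity, had 0.944, 38.4, 1.58 and 465 CPM in astrocyte-marker cells and did not pass (0.13, adjusted p = 0.377). Its 465 CPM stood in tumour 4 alone.

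Notch signalling keeps radial glia and astrocytes from neuronal fate through Hes genes, and BMP signalling raises Id genes. Of 16 tested Notch genes 4 rose and none fell, with a median of 0.04. Hes5, a repressor induced by Notch, had 14.2, 49.9, 53.6 and 284 CPM in astrocyte-marker cells, against 1.58, 1.5, 2.64 and 4.15 CPM in granule-marker cells (0.44, SE 0.09, adjusted p = 0.0267). Hes1 had 124, 69.2, 37.9 and 48.5 CPM, against 103, 13.8, 33.6 and 28.0 CPM (0.30, adjusted p = 0.0107). Lfng, a glycosyltransferase that modifies Notch, and Nrarp, a feedback inhibitor, differed by 0.30 and 0.22 (adjusted p = 0.00746 and 0.000346). Hey1 had 126, 288, 254 and 171 CPM, against 181, 229, 273 and 202 CPM, and did not pass (-0.04, adjusted p = 0.906). Hes5 did not pass without tumour 2 or 3, nor Hes1 without tumour 2, and after thinning none of the 4 passed in limma.

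The starts of Hes5 and Lfng are shown for the same reason, as the 250 bases before each start on the plus strand of GRCm38.p6 from RefSeq, at chr4:154960673-154960922 and chr5:140607091-140607340. Capitals mark TTCCCAC, the sequence bound by RBPJ, the DNA-binding partner of Notch, searched on both strands.
Hes5: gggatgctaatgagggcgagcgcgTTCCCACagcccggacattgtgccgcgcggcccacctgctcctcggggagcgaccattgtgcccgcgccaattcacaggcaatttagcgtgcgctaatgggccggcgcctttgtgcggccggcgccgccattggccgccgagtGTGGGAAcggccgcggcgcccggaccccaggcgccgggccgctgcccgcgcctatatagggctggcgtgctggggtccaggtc
Lfng: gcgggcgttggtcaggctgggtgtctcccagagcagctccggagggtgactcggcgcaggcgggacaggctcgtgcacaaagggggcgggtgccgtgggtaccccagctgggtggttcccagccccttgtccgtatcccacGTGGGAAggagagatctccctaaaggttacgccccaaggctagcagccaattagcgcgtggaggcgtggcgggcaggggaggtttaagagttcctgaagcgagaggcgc
Hes5 held 2 matches and Lfng 1, the window of Nrarp held 0, and 5.42% of the 32851 windows held at least 1.

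Among glial transcription factors 7 of 24 rose and 1 fell, with a median of 0.07. Id3, an inhibitor of differentiation factors that BMP signalling raises, had 62.3, 154, 77.3 and 120 CPM in astrocyte-marker cells, against 1.95, 3.39, 3.77 and 4.15 CPM in granule-marker cells (0.72, SE 0.06, adjusted p = 4.38e-07). It was the only one of 14 tested BMP genes to pass, and it did so whichever tumour was left out and after thinning. Olig2, shared by astrocyte and oligodendrocyte precursors, had 46.2, 42.3, 25.2 and 110 CPM, against 29.3, 3.14, 6.67 and 13.8 CPM (0.36, adjusted p = 0.000402). Hopx, Dbx2, Npas3, Hes1 and Hes5 were the others that rose, and Nfib, a nuclear factor I gene of glia and granule neurons alike, fell by 0.50 (adjusted p = 0.0432). Npas3 did not pass without tumour 4, nor Nfib without tumour 2, 3 or 4. Nfib had 1078, 987, 1297 and 575 CPM, against 1013, 1119, 1537 and 1021 CPM, so tumour 1 went against the other 3 on this scale.

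**Figure D5:**
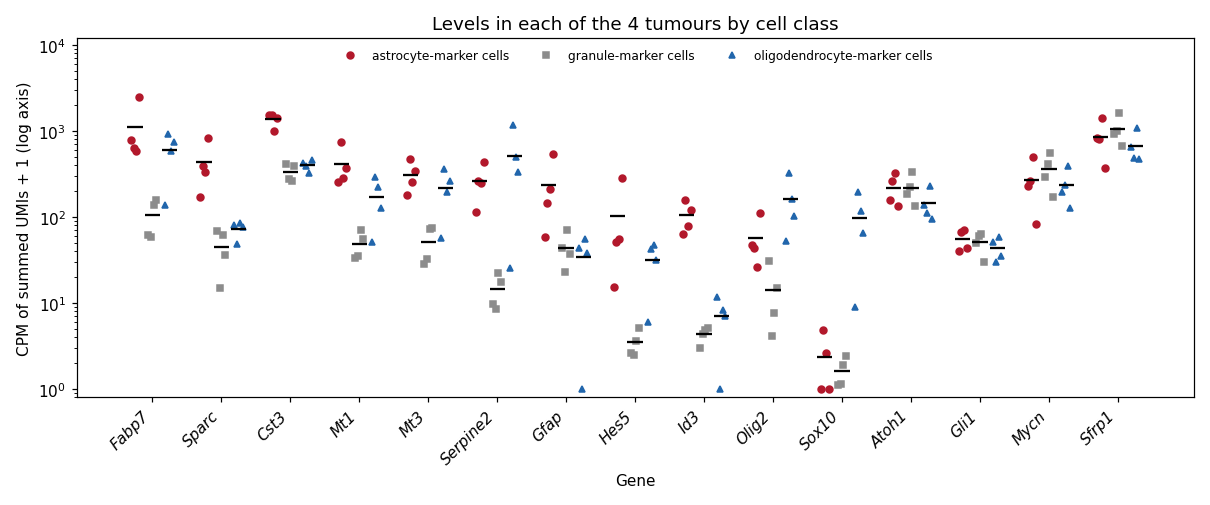
Levels of 15 genes as CPM of summed UMIs plus 1 (log axis), 1 point per tumour for astrocyte-marker, granule-marker and oligodendrocyte-marker cells, with a bar at each mean. Fabp7 has between 587 and 2450 CPM in astrocyte-marker cells, against between 57.9 and 155 CPM in granule-marker cells. Mycn has between 80.8 and 497 CPM, against between 168 and 553 CPM.

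Astrocytes of SHH tumours have been studied as sources of growth signals, so the secreted factors were taken as a list, and some of its members are named here. Of 26 tested, 4 rose and 1 fell, with a median of 0.03. Ptn, the growth factor pleiotrophin and a ligand of Ptprz1, had 92.5, 127, 75.7 and 595 CPM in astrocyte-marker cells, against 69.1, 53.0, 50.6 and 141 CPM in granule-marker cells (0.57, adjusted p = 0.00608), and did not pass without tumour 2. Metrn, the glial differentiation factor meteorin, had 78.3, 65.3, 74.1 and 265 CPM, against 38.4, 18.8, 18.6 and 31.8 CPM (0.61, adjusted p = 5.30e-05). Dkk3 and Fgf1 differed by 0.11 and 0.10, and Fgf1 did not pass without tumour 2 or 4. Igf1 had 0 UMIs in all 111 astrocyte-marker cells, and Ccl2 had 2.

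In the insulin-like growth factor axis Igfbp7 rose, and no other of 10 tested receptors and binding proteins passed. Igfbp7, a secreted protein that binds insulin-like growth factors weakly, had 13.2, 111, 58.4 and 136 CPM in astrocyte-marker cells, against 1.83, 0.998, 5.79 and 2.76 CPM in granule-marker cells (0.42, adjusted p = 5.04e-06), whichever tumour was left out. Igfbp3 and Igfbp4 had 33.1 or more and 34.6 or more CPM in 3 of the 4 tumours, but differed by 0.46 and 0.38 with adjusted p of 0.206 and 0.0610. Igf1r, the receptor, had 30.2, 34.6, 14.2 and 22.6 CPM, against 22.4, 18.8, 25.5 and 28.0 CPM (0.03, adjusted p = 0.878). Igf2r, Insr, Irs1, Irs2, Igfbp5 and Stc2 lay between -0.04 and 0.07, and Pappa and Stc1 were detected in too few cells to be tested, while Igfbp6 was not listed in all files.

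Hedgehog pathway genes, which are driven in granule progenitors by the loss of Ptch1, did not separate the classes except for 2 of 14 tested members that fell. Gli1, the target and effector of the pathway, had 38.7, 65.3, 69.4 and 42.0 CPM in astrocyte-marker cells, against 47.9, 58.5, 61.9 and 28.7 CPM in granule-marker cells (0.04, adjusted p = 0.848). Gli2, Hhip, Smo, Sufu, Boc, Gas1, Kif7, Spop, Evc and Evc2 lay between -0.05 and 0.11 and did not pass. Ptch1 itself had 2 UMIs in astrocyte-marker cells and was not tested, and Gli3, Cdon and Gpr161 were not listed in all files. Mycn, a growth driver of granule progenitors, had 226, 261, 497 and 80.8 CPM, against 289, 404, 553 and 168 CPM (-0.44, SE 0.09, adjusted p = 0.00698). Sfrp1, a secreted Wnt antagonist, had 824, 811, 1402 and 368 CPM, against 923, 993, 1616 and 669 CPM (-0.57, SE 0.12, adjusted p = 0.0152). Both were lower in all 4 tumours, but neither passed without tumour 2 or without tumour 4, or after thinning.

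Of 26 tested granule lineage genes, 3 fell and none rose, with a median of -0.17. The 3 were Mycn, Nfib and Chd7, a chromatin remodeller (-0.36, adjusted p = 0.0405), and without tumour 2 or without tumour 4 none of the list passed, while without tumour 1 there were 14. Atoh1 had 154, 261, 320 and 133 CPM in astrocyte-marker cells, against 184, 221, 331 and 134 CPM in granule-marker cells (0.03, adjusted p = 0.936). Ptprc-detected cells had 100, 61.1, 166 and 33.3 CPM of Atoh1. Neuronal Tubb3 differed by -0.46 with an adjusted p of 0.538. In the cells with all 6 astrocyte genes, 12 granule lineage genes were lower and the median was -0.42, a setting chosen after the data had been seen.

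The 10 largest negative differences among genes that passed with 1 direction in every tumour included Sfrp1 and Mycn. The others were Stmn1 (-0.55), Eef2 (-0.51), Ptma (-0.49), Tmsb10 (-0.49), Hsp90ab1 (-0.48), Tubb5 (-0.48), Fkbp4 (-0.45) and Ebf1 (-0.44). On CPM Tmsb10 was higher in the astrocyte-marker cells of tumour 1, with 2929 against 2642 CPM, and lower in the other tumours. All 10 had an adjusted p between 0.00698 and 0.0387 in limma. They encode microtubule and actin proteins, a translation elongation factor, chaperones and a transcription factor. None of them passed without tumour 4, and none after thinning (adjusted p between 0.106 and 0.641). Stmn1, Ptma and other genes with near-identical copies are uncertain, because how the counting treated reads with several matches is not given in the sources used here.

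Cell cycle genes gave no call in the main comparison, where the background of 2.63% leaves room for few calls in lists of this size. None of 24 G1/S genes, 24 G2/M genes and 13 cyclins and inhibitors passed in limma. In each list 2 had an unadjusted p under 0.05, against 1460 of all 11298 genes tested. On log2 CPM of summed UMIs none of the G1/S and G2/M genes passed either. Mki67, a marker of cycling cells, had 115, 131, 164 and 42.0 CPM in astrocyte-marker cells, against 120, 121, 158 and 82.9 CPM in granule-marker cells (-0.05, adjusted p = 0.874). Top2a, a topoisomerase of dividing cells, had 188, 457, 304 and 275 CPM, against 234, 315, 327 and 125 CPM (0.18, adjusted p = 0.424). The median was -0.07 for G1/S and 0.07 for G2/M genes, and they were -0.17 and -0.11 against granule-marker cells of matched depth, where 6 G1/S genes and 1 of the cyclins and inhibitors fell. In cells with all 6 astrocyte genes, 2 G1/S genes, 3 G2/M genes and 2 of the cyclins and inhibitors fell, with medians of -0.18, -0.28 and -0.29.

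Some genes of immune function rose. Of 15 tested genes for antigen presentation and interferon response, Ifitm3, a membrane protein that restricts viruses, had 57.6, 134, 36.3 and 288 CPM in astrocyte-marker cells, against 17.4, 8.88, 8.80 and 37.7 CPM in granule-marker cells (0.54, adjusted p = 0.000197). Ifi27 also rose but not without tumour 2 or 4, and none fell. Of 13 genes for phagocytosis and complement, C4b, Lrp1 and Itgav rose and none fell, and 10 had an unadjusted p under 0.05, against 1460 of all 11298 genes tested. None of the 3 passed after thinning. Of 15 immediate early and stress genes none passed in limma, 6 had an unadjusted p under 0.05, and 1 was lower on log2 CPM of summed UMIs.

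Astrocyte-marker cells were also set against oligodendrocyte-marker cells, a class chosen by genes of another glial lineage that likewise carried granule lineage transcripts and, in tumour 1, hardly any Sox10. The class was not alike in the 4 tumours. Oligodendrocyte markers, a list apart from the precursor markers, summed to 68.7, 10391, 852 and 178 CPM in it, against between 61.3 and 94.6 CPM in astrocyte-marker cells. The part of this mix in the differences was not tested. Of 11923 genes tested, 115 passed, or 0.965%, with 59 higher (0.495%) and 56 lower (0.47%) in astrocyte-marker cells. On log2 CPM of summed UMIs there were 15 higher and 0 lower, so the lower genes rest on the scale of mean log2 values. Without tumour 1, 385 genes passed (158 higher, 227 lower), without tumour 3 there were 51 (40 and 11) and without tumour 4 there were 45 (29 and 16), and 34 of the 115 passed whichever tumour was left out. With cells thinned to 6700 UMIs, 16 passed.

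Of 18 astrocyte markers outside the rule 7 rose and none fell, with a median of 0.18 against -0.0010 over all genes tested. Acsbg1 (0.69, adjusted p = 1.72e-05), Mlc1 and Slc4a4 passed whichever tumour was left out, but only Acsbg1 and Apoe of the list passed after thinning. Apoe had 1098, 4076, 2715 and 7674 CPM in astrocyte-marker cells, against 527, 1477, 648 and 1015 CPM in oligodendrocyte-marker cells (1.23, SE 0.19, adjusted p = 0.000588), but did not pass without tumour 4. Gfap had 57.6, 142, 210 and 530 CPM, against 42.5, 0, 53.6 and 36.7 CPM in oligodendrocyte-marker cells (0.83, SE 0.13, adjusted p = 0.0101), and did not pass without tumour 2. Gja1 did not pass without tumour 3, nor Mt3 without tumour 1, 3 or 4. Of 19 transport genes 8 rose, and Slc6a11, which had 12.5, 0, 21.9 and 41.8 CPM in oligodendrocyte-marker cells, differed by 0.67 (adjusted p = 3.60e-05).

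Fabp7, Serpine2, Hes5 and Olig2 did not pass the test between these 2 classes. Fabp7 had 134, 917, 580 and 736 CPM in oligodendrocyte-marker cells, and the difference was 0.69 with an adjusted p of 0.316. Serpine2 had 24.1, 1179, 497 and 330 CPM there, above the astrocyte-marker cells in tumours 2 and 3 and below them in tumours 1 and 4. Olig2 had 51.6, 321, 161 and 99.9 CPM there, and its difference of -0.53 had an adjusted p of 0.0788. A p that misses the threshold does not show equal levels.

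Sparc, Cst3 and the metallothioneins rose. Sparc had 79.5, 46.7, 82.8 and 74.3 CPM in oligodendrocyte-marker cells (1.21, SE 0.19, adjusted p = 0.0123) and did not pass without tumour 2. Cst3 had 425, 385, 319 and 457 CPM there, below the astrocyte-marker cells of every tumour (1.13, SE 0.15, adjusted p = 0.000132). Mt1 had 50.4, 286, 223 and 125 CPM (0.89, adjusted p = 0.000349), and Mt2 and Gstm1 differed by 0.54 and 0.61. Mt1, Mt2, Mt3 and Gstm1 passed neither after thinning (adjusted p = 0.0530, 0.753, 0.269 and 0.657) nor on log2 CPM of summed UMIs (0.117, 0.0667, 0.276 and 0.0813), and Sparc did not pass on the second scale (0.145). Id3 (0.65, adjusted p = 4.11e-05), Hopx, Igfbp7 (0.35, adjusted p = 0.00261) and Pla2g7 (0.75, adjusted p = 4.11e-05) also rose, whichever tumour was left out. After thinning Hopx passed, and Id3, Igfbp7 and Pla2g7 did not (adjusted p = 0.121, 0.280 and 0.0551). On log2 CPM of summed UMIs Igfbp7 did not pass either (0.248). Sept4, Tspan7, Car2, Fabp5 and Glul completed the 15 largest among genes that passed with 1 direction in every tumour. That direction is the one on mean log2 values. On CPM tumour 2 went the other way for Car2 (76.8 against 432 in oligodendrocyte-marker cells), Sept4 (346 against 432) and Fabp5 (684 against 905). Fabp5 was also lower on CPM in tumour 3 (748 against 783), and Glul was level in tumour 2 (369 against 368). Fabp5 did not pass without tumour 2, 3 or 4, nor Glul without tumour 3 or 4.

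In the other direction stood genes of the oligodendrocyte lineage. Of 7 tested precursor markers 4 fell and none rose, with a median of -0.32, and because the rules set both classes apart by this lineage that direction was fixed by the choice of cells. Gpr17, a receptor of committed precursors, had 0.944, 0, 0 and 0 CPM in astrocyte-marker cells, against 5.41, 46.7, 70.6 and 34.2 CPM in oligodendrocyte-marker cells (-0.29, adjusted p = 0.00331). Cspg4, a proteoglycan of precursors, had 5.66, 0, 0 and 9.70 CPM, against 5.83, 46.7, 53.6 and 74.3 CPM (-0.34, adjusted p = 0.00959). In tumour 1 the 2 classes hardly differed in Cspg4, and its call ended without tumour 3 or 4. C1ql1 and Nkx2-2 ended without tumour 2, 3 or 4. None of the 4 passed after thinning or on log2 CPM of summed UMIs. The largest negative differences were ranked among genes that passed with 1 direction in every tumour. They were those of Ncald (-0.66), Ostf1 (-0.63), Tpm1 (-0.61), Epn2 (-0.59), Pgp (-0.53), C1ql1 (-0.53), Rgcc (-0.52), Nap1l5 (-0.50), 3110035E14Rik (-0.47) and Lrp1b (-0.38). Rgcc, a cell cycle regulator, had 12.3, 7.68, 17.4 and 29.1 CPM, against 21.6, 146, 127 and 78.6 CPM. Tpm1 and Lrp1b did not pass without tumour 3 or 4, Epn2 without tumour 2, 3 or 4, Nap1l5 without tumour 2 or 3, nor 3110035E14Rik without tumour 3. Cnp, a myelin enzyme, and the secreted factors Bmp7 and Il18 were also lower (-0.35, -0.18 and -0.17, adjusted p = 0.0191, 0.0369 and 0.0296). Neither Cnp nor Bmp7 passed without tumour 3 or 4, nor Il18 without tumour 2, 3 or 4.

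Hedgehog, granule lineage and cell cycle lists gave no gene past the threshold between the 2 classes in limma, and none on log2 CPM of summed UMIs. At an unadjusted p under 0.05 in limma stood 0 of 14, 5 of 26 and 3 of 24 (G1/S) or 2 of 24 (G2/M), against 1051 of all 11923 genes tested. The medians of these lists were 0.06, 0.11, 0.07 and 0.10. Granule lineage genes summed to 5428, 6565, 7273 and 3856 CPM in astrocyte-marker cells and to 4709, 4980, 6940 and 5028 CPM in oligodendrocyte-marker cells, so both classes carried them at levels above those of Ptprc-detected cells in every tumour.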

How the data were processed

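Single-cell RNA was sequenced in 4 libraries, 1 per tumour, with 19446245, 23439893, 10458431 and 18242667 UMIs and medians of 15284, 7754, 6799 and 7825 UMIs per cell. The authors deposited log2 values, and the values themselves show the form log2(UMIs / size factor + 1): undone, each gave a whole number of UMIs to within 1e-06, and these UMIs were used for levels. Cell Ranger, Seurat and mm10 are named in the submitters' processing notes, without versions. The files listed 33219, 14833, 13622 and 15359 genes, 13149 of them in all 4, and an unlisted gene counted as 0. Tumours shared between 0 and 7 cell barcodes. No cell was removed, at most 8.11% of a cell's UMIs were mitochondrial, and no doublet caller was run.

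The members, the comparison classes and the gene lists were chosen with earlier results of these data known. For each tumour and class with at least 10 cells the mean log2 value of each gene was taken. The test, run on genes with a UMI in 5% or more of the cells of 1 of the classes, was limma 3.58.1 (variance trend, robust, statmod 1.5.0, R 4.3.3), and had tumour as a block because both classes came from the same library. P-values were adjusted by Benjamini-Hochberg over all genes tested, and 18 genes of the rules were left out. With 4 tumours very small p-values rest largely on variance shared across genes. A count-model test had been planned only for files of raw counts, and these files held log2 values. Named genes were the 15 largest positive and 10 largest negative differences past the threshold with 1 direction in every tumour, every gene of the hedgehog, Bergmann glia and insulin-like growth factor lists, and up to 6 of the largest differences of every other list; other names were chosen after their values were seen. Some genes that entered the fits and the list counts are not reported here by name. Alternatives changed the scale, filter, block, rule, depth and tumours. Tables were handled in Python 3.11.15 with pandas 2.3.3, numpy 2.4.6 and scipy 1.17.1, and figures were drawn with matplotlib 3.10.9. The fit against granule-marker cells was tested on simulated data. Both classes were drawn from the granule-marker profile, with the same fold in every cell and tumour and fewer comparison cells in the larger tumours. In that setting it recovered 79 of 100 genes changed 4-fold and 34 of 100 changed 2-fold, and 0 unchanged genes passed. Many 2-fold changes were thus missed. The real members were a mix of cells at unlike levels, chosen by genes that move together, so these rates may not hold for them. Positions came from the GENCODE annotation of GRCm38, in which 562 of 566 symbols matched, and promoters from RefSeq.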

Additional observations from a re-analysis of the deposited data

Results flagged for a closer look

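Each of 52 results with a value in each of the 4 tumours was looked at for a tumour far from the other 3 by Dixon's criterion, and 3 stood out; chance flags about 1 in 20. Astrocyte-marker cells of tumour 1 had a median of 35095 UMIs, against between 10856 and 13034 in the other tumours. Tubb5 differed from granule-marker cells by -0.99 in tumour 2, the most negative of its 4. C1ql1 differed from oligodendrocyte-marker cells by -0.90 in tumour 2, again the most negative. What set these tumours apart was not tested.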

How the results depend on the processing

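Against granule-marker cells 297 genes passed in the main comparison. There were 186 on log2 CPM of summed UMIs with a pseudocount of 1, 63 with cells thinned to equal UMIs, 171 without a detection filter, and between 176 and 599 with 1 tumour left out. Without the replicate block that pairs the classes of a tumour, 26 genes passed. With cells that had all 6 genes, a setting added after the data had been seen, 497 passed. It stayed between 200 and 406 with a pseudocount of 10, a 20% filter, at least 3 or 5 genes, at most 1 astrocyte gene in granule-marker cells, or comparison cells of matched depth (added after the data had been seen). Against oligodendrocyte-marker cells 115 genes passed. There were 15 on log2 CPM of summed UMIs and 6 with a pseudocount of 1, 16 after thinning, 32 with at least 3 and 65 with at least 5 of the 6 genes, and between 45 and 385 with 1 tumour left out. Without the replicate block none passed in limma, and 262 had an unadjusted p under 0.05. The share of astrocyte-marker cells was 1.71%, and it was 3.58% with at least 3 genes, 0.876% with at least 5, between 1.23% and 2.32% with 1 tumour left out, and 0.762% with the rule applied to thinned cells (added after the data had been seen). Of 710 values of the 49 named genes under alternatives, 474 kept their direction and side of the threshold, 236 kept the direction only, and 0 reversed. The cause was not tested. Named genes had been picked for 1 direction in every tumour, so leaving out a tumour could not reverse them. Dropping the block or changing the detection filter leaves the difference itself as it was. For those settings the absence of reversals was fixed in advance. Leaving out cells that met both rules could not be fitted, with under 10 cells per tumour. With 20 to 46 astrocyte-marker cells per tumour, rare transcripts have few UMIs, and a gene that did not pass is not shown to be equal.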
